A study of Sus scrofa with 5 samples.

Results

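Pig embryoid bodies (PEBs) were compared with the embryonic stem cell-like (ES-like) cells from which they were made, by their mature microRNAs (miRNAs). The ES-like cells were a pig cell line grown as colonies on mitomycin-C-treated mouse embryonic fibroblasts, in a serum-containing medium with human recombinant stem cell factor (hrSCF) and human recombinant basic fibroblast growth factor (hrbFGF). PEBs were the aggregates that pieces of such colonies gave in hanging drops within a week, without the feeder layer, hrSCF and hrbFGF. Each side was 1 small RNA library of 1 line, so every ratio below compares 2 libraries and carries no test between conditions. The series also held 2 libraries of day 7 parthenogenetic blastocysts (BL_1 and BL_2), which came from eggs activated without sperm, and 1 library of pig fetal fibroblasts (PFFs).

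Reads were summed for each mature miRNA name over its precursor rows and expressed as reads in every 1000000 mature miRNA reads of the library (RPM). A name entered the comparison with 10 or more reads in either library, and 285 of the 411 names of the table did so, out of 327 with a read in any library. Of these 285 miRNAs, 272 had 10 or more reads in both libraries, 10 had them in the PEB library alone and 3 in the ES-like library alone. Of the 54 compared names with several precursor rows, 34 had rows that differed by at most 1% in both libraries, so the same reads may have been entered 2 or 3 times. For these names the ratios hold for 1 row as for the sum, but levels and shares may be up to 3 times too high and counting intervals too narrow. A further 29 names had fewer reads than that in both libraries and 97 had none in either. The PEB library held 15849954 mature reads and the ES-like library 6372500, so the former was 2.49 times as deep, and 3 reads corresponded to 0.189 RPM in PEBs and 0.471 RPM in ES-like cells. The sample sheet of the study lists the mature read totals of the ES-like and PFF libraries in exchanged places relative to the deposited columns, and the column names were followed here. The other libraries held 113743 (BL_1), 2782150 (BL_2) and 27071931 (PFFs) mature reads. The column labelled PFF was led by miR-21, which is abundant in fibroblasts, with 52.3% of its reads.

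miRNAs are short RNAs that pair through their seed with messenger RNAs and lower the output of those messengers. Pluripotent cells keep mature let-7 low through LIN28, a protein that blocks processing of let-7 precursors, and let-7 accumulates as cells differentiate. The miR-17-92 cluster and its paralogue on the X chromosome, miR-106a-363, are known for promoting proliferation, and the miR-371 cluster is expressed in early embryos and pluripotent cells. Embryoid bodies are aggregates in which such cells begin to form derivatives of several germ layers. Other miRNAs are known for single lineages, such as miR-122 for hepatocytes, miR-142 and miR-451 for blood cells, miR-126 for endothelium and miR-199 and miR-214 for mesenchyme.

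The labelled identity of the ES-like cells was checked against such markers first. miR-371-5p, the single member of its cluster in the table, was at 30.9 RPM in ES-like cells, whereas it was at 324635 RPM in BL_1 and 296148 RPM in BL_2. Thus this marker of early embryos was nearly absent from the ES-like cells, and other clusters known for stem cells were not analysed here as named miRNAs. ES-like cells and BLs did share an abundant unnamed locus: reads of a predicted locus on chromosome 8, from 115200079 to 115200140 (Sscrofa10.2), equalled 62.5% of mature reads in ES-like cells, 24.6% and 17.9% in the BLs and 11.1% in PEBs, with 24 reads in PFFs. The miR-106a-363 cluster made up 5.19% of mature reads in ES-like cells (2.76% with near-equal rows counted once), against 0.0336% in PFFs and 0.0536% and 0.0417% in the BLs. Lineage markers were abundant in the ES-like cells at the same time: miR-122 held 10.1% of their reads, and the mesenchymal miRNAs of the list used here (miR-143, miR-145, miR-199a, miR-199b and miR-214) held 5.83%, with reads that miR-199a-3p and miR-199b-3p share counted once.

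The libraries were led by nearly the same miRNAs in a different order. In ES-like cells the 8 most abundant were miR-148a-3p, miR-21, miR-122, miR-92a, miR-363, miR-199b-3p, miR-199a-3p and miR-199a-5p, and in PEBs they were miR-21, miR-199b-3p, miR-199a-3p, miR-148a-3p, miR-122, miR-92a, let-7f and miR-199a-5p. These names held 60.5% of the reads in ES-like cells and 58.3% in PEBs. By 1 of its near-equal rows miR-199a-5p would leave both groups. miR-363 left this group and let-7f, a let-7 family member, entered it. let-7f sums 2 precursor rows (334511 and 314051 PEB reads), and so does miR-92a (375138 and 365033). By 1 row each would lie below miR-103 as counted here (445040 PEB reads), so their places in PEBs depend on the summing. The 3p arms of miR-199a and miR-199b were counted under both names with almost equal reads, and counted once they went from 2.65% of reads in ES-like cells to 8.04% in PEBs. miR-148a-3p went from 16.01% to 5.97% of reads, and miR-21 stood at 15.5% and 18.9%.

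In RPM, 61 of the 285 miRNAs (21.4%) were more than 2-fold higher in PEBs and 67 (23.5%) more than 2-fold lower. The balance of these counts depended on the scaling. Under 6 scalings the count of higher miRNAs ranged from 52 to 102 and that of lower ones from 26 to 82, and the median log2 ratio of all 285 moved from -0.32 to 0.53 around its value of -0.19 in RPM. TMM factors over 5 libraries raised every log2 ratio by 0.72 and a total without miR-148a-3p and miR-21 lowered it by 0.13, so a miRNA less than 0.72 below or 0.13 above equal RPM changes its direction with the scaling. Therefore a miRNA is called higher or lower in what follows only when it was past 2-fold under all 6 scalings. By that rule 52 miRNAs (18.2%) were higher in PEBs and 26 (9.12%) were lower. In RPM the rule asks for a log2 ratio above 1.13 for higher but below -1.72 for lower. The excess of higher miRNAs therefore depends on these unlike limits, since the counts past 2-fold in RPM were 61 and 67. Names that repeat the reads of another (miR-199b-3p, miR-9-1, miR-9-2 and miR-490) leave 49 and 25 when counted once. Near-equal precursor rows of the names kept stay summed in the shares that follow. Among them are the 2 rows of miR-363, which as a sum held 4.13% of ES-like reads. The share of reads in those 49 was 6.99% before and 20.3% after the hanging-drop culture, and that in those 25 was 6.28% and 1.53%. Both sets were chosen by the ratio between these same libraries, so the direction of these shares was fixed by the choice. The sets include names with few reads, since 7 of the higher miRNAs had under 10 reads in ES-like cells and 2 of the lower ones had under 10 in PEBs.

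**Figure D1:**
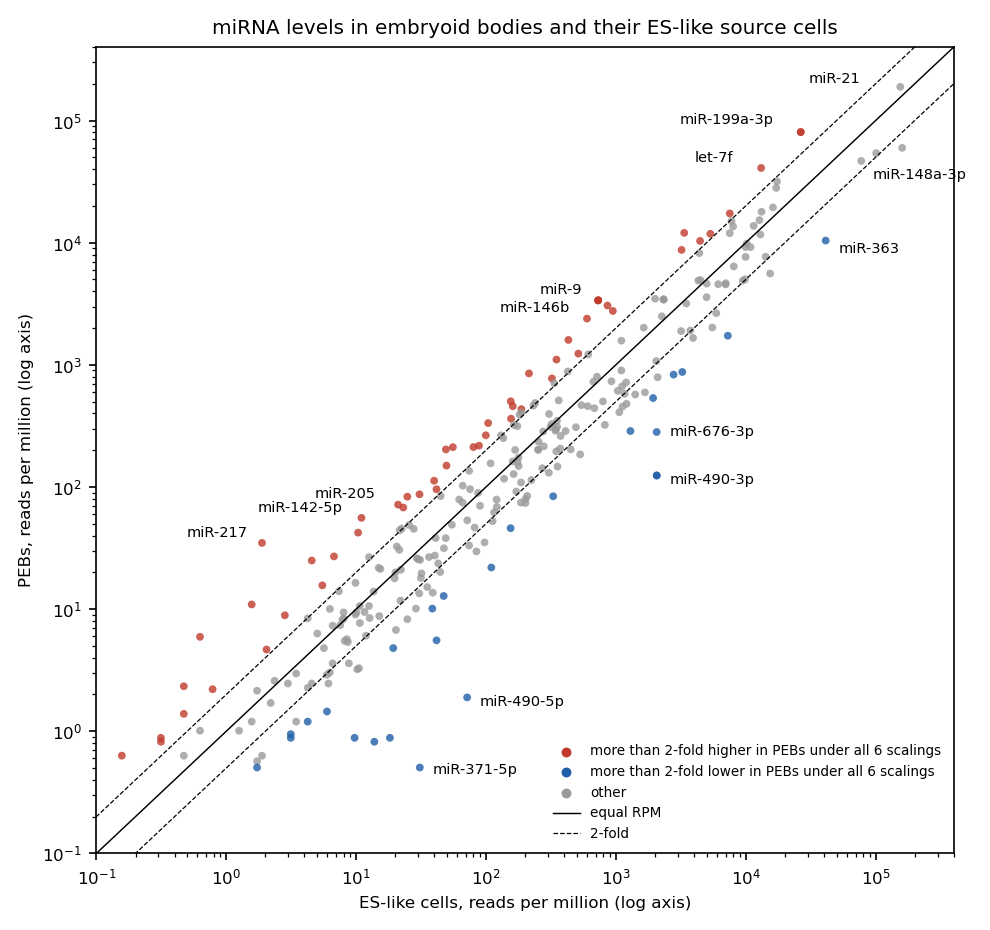
RPM of each of the 285 miRNAs in ES-like cells (horizontal, log axis) and in PEBs (vertical, log axis), with 1 point for a miRNA, a solid line at equal RPM and dashed lines at 2-fold. The 52 miRNAs that were higher under all 6 scalings are red and the 26 that were lower are blue; the largest distances below the line belong to miR-371-5p and miR-490-5p, and the largest above it to miR-217.

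The only replicate spread in the series came from the BLs, and it was smaller than the distance between PEBs and ES-like cells. Over the 54 miRNAs with 100 or more reads in both BL libraries, BL_2 and BL_1 differed by a median of 0.34 in absolute log2 ratio, and 4 miRNAs (7.41%) were past 2-fold. Over the 53 of these that were compared here, PEBs and ES-like cells differed by a median of 0.77, with 18 (33.96%) past 2-fold. The BLs were another cell type at other depths, so their spread is a description and not an error for the ratios below. The intervals given with each ratio are 95% exact intervals from the 2 read counts and cover counting error only. Since the libraries came from whole cultures, fewer cells of a type and less RNA per cell cannot be told apart.

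The let-7 family was higher in PEBs almost throughout. Of its 9 measured members, 8 were higher under all scalings, against 18.2% of all 285 miRNAs, and the family took 2.92% of reads in ES-like cells and 7.996% in PEBs. let-7a and let-7f each sum 2 precursor rows that may share reads, so their levels and the family's shares may be too high. let-7a was counted 21405 times in ES-like cells (3359 RPM) and 190649 times in PEBs (12028 RPM), a ratio of 3.58 (3.53 to 3.63). In PFFs let-7a was at 12316 RPM, and in BL_1 and BL_2 it was at 9390 and 4448 RPM. The ES-like level of let-7a lay below that of every other library, and the PEB level lay close to that of PFFs in RPM but at 0.487 of it with DESeq2 size factors. let-7f, the most abundant member, went from 13140 to 40919 RPM, above the 16557 RPM of PFFs, and its ES-like level was above the 5319 and 5511 RPM of the BLs. Libraries were thus ordered differently for these members. As a sum the family took 1.74% and 1.26% of reads in the BLs and 4.77% in PFFs. let-7d-5p, with the largest ratio of the family at 3.71 (3.57 to 3.86), went from 431 to 1599 RPM. let-7c (862 to 3059 RPM), let-7g (3205 to 8718 RPM), let-7e (514 to 1235 RPM), miR-98 (104 to 334 RPM) and let-7d-3p (39.9 to 113 RPM) had ratios between 2.40 and 3.55. let-7i was the exception, with 7534 RPM in ES-like cells and 11960 RPM in PEBs, a ratio of 1.59 (1.57 to 1.60). The median log2 ratio of the family was 1.64, beside -0.19 for all 285 miRNAs.

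Several let-7 genes lie beside genes of the miR-99, miR-100 and miR-125 families, and within these neighbourhoods a ratio of ratios is free of the scaling. let-7a exceeded its neighbour miR-100 by 2.32 on the log2 scale, let-7e exceeded miR-99b by 1.60 and miR-125a by 1.12, and let-7c exceeded miR-99a by 1.03. So in each of these neighbourhoods let-7 moved further towards PEBs than the miRNAs next to it. let-7a itself comes from more than 1 gene, and the row of precursor let-7a-1, which lies beside miR-100, had a log2 ratio of 1.76 while that of let-7a-2 had 1.96. Of the 5 miRNAs of the miR-99, miR-100 and miR-125 families, only miR-125b was higher under all scalings, from 7530 to 17351 RPM, and miR-100 was at 4995 RPM in ES-like cells and 3576 RPM in PEBs.

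miR-9, which is known for neural progenitors, had the largest ratio among the more abundant miRNAs. It was counted 4653 times in ES-like cells (730 RPM) and 53454 times in PEBs (3372.5 RPM), a ratio of 4.62 (4.48 to 4.76). BL_1 and BL_2 were at 1925 and 2429 RPM and PFFs at 116 RPM, so ES-like cells lay between BLs and PFFs and PEBs were the highest library in RPM, though BL_2 was with DESeq2 size factors. Its 3 precursor rows hold equal counts, and 1 row has 1551 and 17818 reads (243 and 1124 RPM) with an interval of the ratio from 4.38 to 4.87. The names miR-9-1 and miR-9-2 carried the same reads and add no evidence. Of the 10 measured names of the neural list, the 3 names of miR-9 were the only ones higher under all scalings, beside 18.2% of all miRNAs. miR-124a, the classical neuronal miRNA, was barely present, with 8 reads before and 16 after the hanging-drop culture (1.26 and 1.01 RPM). miR-128 stood at 9487 and 4890 RPM, and miR-7, abundant in neuroendocrine cells, stood at 15411 RPM in ES-like cells and 5588 RPM in PEBs, a log2 ratio of -1.46 that did not keep 2-fold under every scaling. The neural list as a whole had a median log2 ratio of -0.32.

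The miR-146 pair, known for restraining innate immune signalling, was also higher in PEBs. miR-146a-5p had 313 reads in ES-like cells (49.1 RPM) and 3216 in PEBs (203 RPM), and miR-146b had 3819 (599 RPM) and 37869 (2389 RPM). Their ratios were 4.13 (3.68 to 4.65) and 3.99 (3.86 to 4.12). Both were close to absent in PFFs, at 5.28 and 5.98 RPM. In BL_1 and BL_2 miR-146a-5p was at 158 and 200 RPM and miR-146b at 615 and 788 RPM. In RPM the ES-like level of miR-146a-5p was thus below that of the BLs. The ES-like level of miR-146b was close to that of BL_1, which had 70 reads of it. Without miR-148a-3p and miR-21 in the total it was above BL_1, at 875 against 655. miR-155-5p, another miRNA of activated immune cells, was at 108 RPM in ES-like cells and 156 RPM in PEBs, which is less than 2-fold. miR-142, a blood cell miRNA, was higher on both arms, with 70 and 885 reads of miR-142-5p (11.0 and 55.8 RPM) and 43 and 428 reads of miR-142-3p (6.75 and 27.0 RPM). PFFs had 10 and 27 reads of these arms, and the BLs had 5 reads in all. By contrast miR-144 and miR-451, which share a primary transcript and mark red blood cells, were lower in PEBs: miR-144 had 116 ES-like and 14 PEB reads, and miR-451 had 88 and 13. Their ratios of ES-like cells to PEBs were 20.6 (11.8 to 38.9) and 16.8 (9.35 to 32.9). Of the 8 measured miRNAs of the blood cell list, 2 were higher and 2 lower under all scalings, counts too small to set against the 18.2% and 9.12% of all miRNAs, and the list held 0.0171% of reads in ES-like cells and 0.0252% in PEBs.

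Mesenchymal miRNAs, with the shared 3p reads of miR-199a and miR-199b counted once, took 5.83% of mature reads in ES-like cells and 13.2% in PEBs, or 4.96% and 11.6% by 1 of the near-equal rows of miR-199a-5p. With these rows summed, the list held 18.4% of reads in PFFs and 0.0273% and 0.0218% in the BLs. Of the 9 names listed, miR-199a-3p, miR-199b-3p and miR-214 were higher under all scalings, beside 18.2% of all miRNAs. With the shared 3p reads counted once, these were the 3p arm of miR-199 and miR-214 among 8 names. miR-199a-3p had 168970 reads in ES-like cells (26516 RPM) and 1274657 in PEBs (80420 RPM), a ratio of 3.03 (3.02 to 3.05), and in PFFs it was at 52517 RPM. PEBs were the highest library for this miRNA in RPM, at 1.53 times the level of PFFs, but with TMM factors over 5 libraries the ratio was 0.905. miR-214, which is processed from the same transcript as miR-199a, went from 322 to 774 RPM (516 in PFFs). miR-143-3p, a smooth muscle and fibroblast miRNA, differed from them: its 13226 RPM in ES-like cells and 17917 RPM in PEBs stood against 101507 RPM in PFFs. miR-145-5p, its neighbour, was at 321 and 328 RPM against 2692 RPM in PFFs. In RPM the 3p arm of miR-199, miR-214 and miR-199a-5p (31819 against 23636 RPM) were above the fibroblast level in PEBs, and all 3 were below it with TMM factors over 5 libraries, DESeq2 size factors and the total without miR-148a-3p and miR-21. Under every scaling that covers PFFs, miR-199b-5p (487 against 1337 RPM), both arms of miR-143 and both arms of miR-145 (3p arm 315 against 511 RPM) were below it. Mouse feeder cells, which are fibroblasts, were present in the ES-like culture, the reads of mouse and pig copies of a conserved miRNA cannot be told apart, and the part of feeder cells in these values was not tested.

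As a sum, endoderm and liver miRNAs were abundant in both libraries and almost absent from PFFs, and most of their reads were of miR-122. miR-122 was counted 643647 times in ES-like cells (101004 RPM) and 857419 times in PEBs (54096 RPM), and PFFs had 112 reads of it (4.14 RPM). Its log2 ratio was -0.90 in RPM, within 2-fold. miR-192 was at 5926 and 2650 RPM, miR-215 at 271 and 142 RPM and miR-194a at 795 and 501 RPM. miR-194b-5p was scarce, with 39 reads in each library (6.12 and 2.46 RPM). All 5 listed members had log2 ratios between -1.31 and -0.67 in RPM, and none was lower under all scalings. The list went from 10.8% to 5.74% of reads, of which miR-122 alone held 10.1% and 5.41%. With TMM factors over 5 libraries the median of the 5 members was -0.21 and miR-194a was at 0.05. miR-217 and miR-216, which are neighbours and known for pancreatic acinar cells, were at the other end: miR-217 had 12 ES-like and 552 PEB reads (1.88 and 34.8 RPM), and miR-216 had 4 and 94 (0.628 and 5.93 RPM). miR-217 had the largest ratio of all 285 miRNAs at 18.5 (10.5 to 36.0), and that of miR-216 was 9.45 (3.57 to 35.4). Both have 2 precursor rows with equal counts, and by 1 row (6 and 276 reads, 2 and 47 reads) the intervals widen to 8.39 to 50.8 and 2.47 to 80.3. No read of either was found in the BLs, and PFFs had 12 and 2.

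miR-205, an epithelial and trophectoderm miRNA, had 134 reads in ES-like cells (21.03 RPM) and 1136 in PEBs (71.7 RPM), a ratio of 3.41 (2.85 to 4.11). The BLs were far above both at 4748 and 5753 RPM, and PFFs were at 0.702 RPM. miR-429 of the miR-200 family stood at 1199 RPM in ES-like cells and 718 RPM in PEBs, within 2-fold, and at 0.0739 RPM in PFFs. These were the only 2 names of the epithelial list analysed here. miR-31, another epithelial miRNA, went from 349 to 1104 RPM and was higher under all scalings, whereas PFFs were at 23.1 RPM. The miR-183 cluster, which serves sensory epithelia, stayed within 2-fold for miR-183 (9973 and 7645 RPM) and miR-182 (9973 and 9213 RPM), and miR-96-5p had 2098 and 791 RPM.

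**Figure D2:**
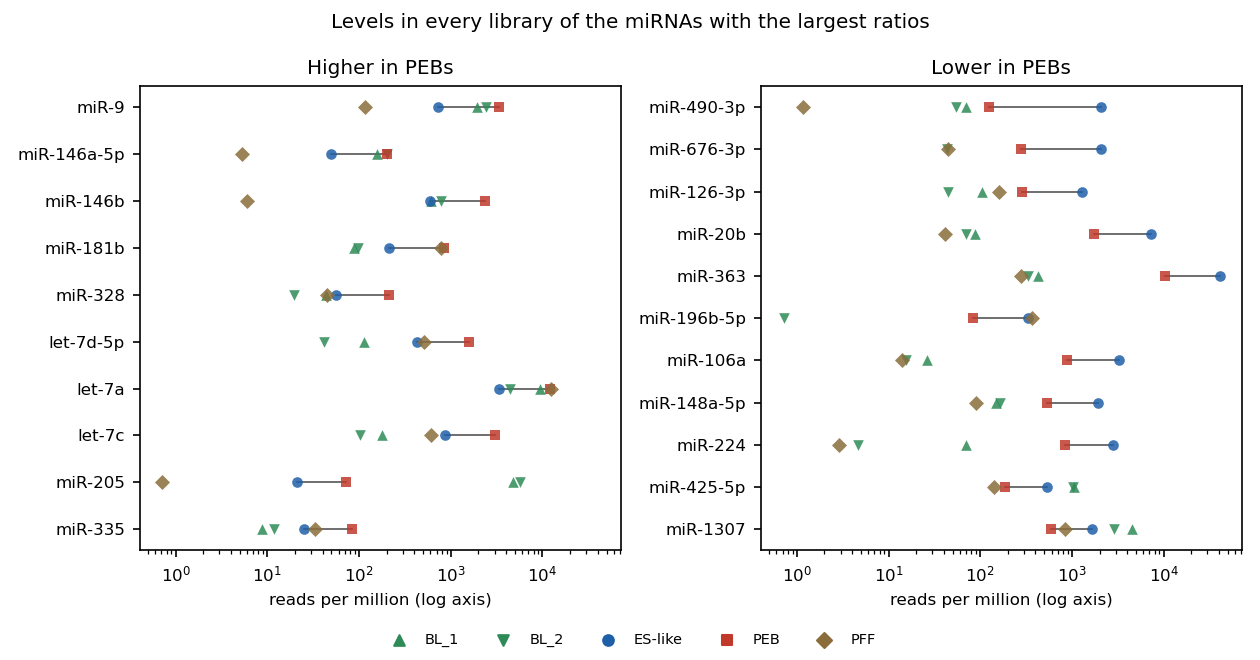
RPM (log axis) in every library of the miRNAs with the largest ratios among those with 1000 or more reads in the higher of ES-like cells and PEBs, where 1 symbol is 1 library, the grey line joins ES-like cells and PEBs, names that repeat another's reads are left out and a library without reads has no symbol. For miR-146b and miR-328 the PEBs are the highest library, for miR-205 the BLs lie far above both, and for 8 of the 11 miRNAs on the right the ES-like cells are the highest library.

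miR-10a, encoded in the Hox clusters that pattern the body axis, was higher in PEBs. miR-10a-5p went from 5337 to 11824 RPM and its 3p arm from 30.8 to 87.1 RPM, both higher under all scalings, and miR-10b, its paralogue, was at 4389 and 8211 RPM with a log2 ratio of 0.90, within 2-fold. miR-615, a miRNA of the HoxC cluster, went from 80.0 to 212 RPM. miR-196b-5p, which lies in the HoxA cluster, had the opposite sign with 2096 reads in ES-like cells (329 RPM) and 1330 in PEBs (83.9 RPM), a 3.92-fold lower level (3.66 to 4.20), and miR-196a was at 1117 and 666 RPM. Thus the Hox miRNAs did not move together. The list counted 3 higher and 1 lower of 6 measured, where 18.2% and 9.12% of all miRNAs were.

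Other miRNAs with a neighbour of the same direction were miR-181a and miR-181b, which act in lymphocytes and vascular cells. miR-181b had 1365 reads in ES-like cells (214 RPM) and 13478 in PEBs (850 RPM), and miR-181a went from 948 to 2761 RPM. miR-181c and miR-181d-5p, from another gene of the family, were level in RPM at 41.0 and 38.2 and at 276 and 284. The miR-23, miR-27 and miR-24 clusters lay near 2-fold, with a median log2 ratio of 1.01 and miR-24-3p (4448 to 10332 RPM) and miR-27b-5p (23.1 to 67.9 RPM) higher under all scalings. miR-221 and miR-222, which favour proliferation, had log2 ratios from 0.91 to 1.05 and none kept 2-fold under all scalings.

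The imprinted miRNAs of the DLK1-DIO3 region, which are expressed from the maternal chromosome, were low in both libraries but shared a sign. All 13 measured members had log2 ratios above 0 in RPM, from 0.35 for miR-136 to 1.51 for miR-382, where 122 of all 285 were above 0, and their sum went from 0.0811% to 0.170% of reads. Under the scaling that leaves out miR-148a-3p and miR-21, which lowers every log2 ratio by 0.13, the lowest of them was still above 0. miR-382 (161 to 458 RPM), miR-411 (88.3 to 218 RPM) and miR-758 (13 reads and 74 reads) were higher under all scalings. The BLs had almost none of these miRNAs, at 0.00703% and 0.0125% of reads. In the muscle list miR-1 went from 155 to 503 RPM and the 5p arm of miR-133a from 3 to 37 reads, whereas miR-206 was level at 20.1 and 20.0 RPM and miR-499-5p stood at 208 and 84.4 RPM.

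miR-328 and miR-335, which belong to none of the lists, were also higher in PEBs. miR-328 went from 55.6 to 212 RPM and miR-335, an imprinted miRNA inside MEST, from 24.8 to 83.3 RPM. PEBs were the highest library for both.

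Among the lower miRNAs, miR-371-5p had the smallest ratio of all 285. It had 197 reads in ES-like cells and 8 in PEBs (0.505 RPM), a 61.2-fold difference (30.5 to 144), and PFFs had 5 reads. The embryo marker was thus nearly gone from PEBs, as from PFFs, after an ES-like level that was already far below that of the BLs. miR-105-1 and miR-105-2, which had 9 and 3 reads in ES-like cells and 0 and 1 in PEBs, stayed under the limit of 10 reads and are not among the 285.

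The X-linked miR-106a-363 cluster was lower in PEBs on all 4 of its own members, beside 9.12% of all miRNAs, and miR-17-92, its paralogue, was not. miR-363 had 262914 reads in ES-like cells (41258 RPM) and 164902 in PEBs (10404 RPM), a 3.97-fold difference (3.94 to 3.99). miR-20b was 4.20-fold lower (7277 to 1731 RPM), miR-106a 3.71-fold lower (3246 to 874 RPM) and miR-18b 5.02-fold lower (110 to 21.9 RPM), and in PFFs each of the 4 was lower still. The 7 measured miRNAs of miR-17-92 had log2 ratios from -0.97 to -0.11 in RPM, none past 2-fold, and a median of -0.63 that was 0.09 with TMM factors over 5 libraries. miR-17-5p was at 5000 and 4620 RPM, miR-20a at 12970 and 11666 RPM and miR-19a at 254 and 234 RPM. The distance between the medians of the clusters was 1.40 on the log2 scale, whatever the scaling. Set against its paralogue in the same library, miR-20b had 56.1 reads for every 100 of miR-20a in ES-like cells and 14.8 in PEBs, miR-106a had 64.9 and 18.9 for every 100 of miR-17-5p, and miR-18b had 16.1 and 4.96 for every 100 of miR-18a. By 1 of the equal precursor rows of miR-20b its values would be 28.1 and 7.42. miR-19b and miR-92a are encoded in both clusters and their reads cannot be assigned to either, and their log2 ratios were -0.97 and -0.73. Without them the 5 miRNAs of miR-17-92 had a median of -0.15. Reads of paralogues that differ by few bases can be divided differently by the authors' counting, and this was not tested.

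miR-490 was lower in PEBs on both arms. Its 3p arm had 13148 ES-like reads (2063 RPM) and 1968 in PEBs (124 RPM), a 16.6-fold difference (15.8 to 17.4), and the 5p arm had 456 and 30, a 37.8-fold difference (26.1 to 56.7, or 22.4 to 68.7 by 1 of its 2 equal rows). The BLs were at 70.3 and 53.9 RPM and PFFs at 1.18 RPM for the 3p arm, so the ES-like library was far above the others, and PEBs lay above the BLs, of which BL_1 had 8 reads. miR-676, an X-linked miRNA, was lower on both arms as well, with 13136 and 4464 reads of miR-676-3p, a 7.32-fold difference (7.07 to 7.57). miR-224 and miR-452, neighbours on the X chromosome, were at 2782 and 832 RPM and at 5526 and 2021 RPM. Both were close to absent in PFFs, at 2.88 RPM each, and miR-224 but not miR-452 was lower under all scalings. miR-126, the endothelial miRNA, was lower on both arms, with 8248 and 4550 reads of miR-126-3p (1294 and 287 RPM), a 4.51-fold difference (4.35 to 4.68), and 301 and 203 reads of miR-126-5p. miR-210, which responds to low oxygen, was 3.36-fold lower (3.05 to 3.71), with 155 and 46.0 RPM.

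miR-148a-3p, an abundant miRNA of secretory and epithelial tissues, led the ES-like library with 1020491 reads (160140 RPM) and had 946939 in PEBs (59744 RPM). Its log2 ratio was -1.42 in RPM and -0.71 with TMM factors over 5 libraries, so it did not keep 2-fold. Its 5p arm went from 1935 to 534 RPM and did, with a 3.62-fold difference (3.52 to 3.72). miR-148b-3p was at 2048 and 1074 RPM. miR-152, which shares the seed of miR-148a, went the other way from 1103 RPM to 1576 RPM, towards the 2168 RPM of the fibroblasts. miR-425-5p (531 to 185 RPM) and miR-1307 (1673 to 595 RPM) completed the abundant miRNAs with the smallest ratios, and neither kept 2-fold under all scalings.

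Other families lay mostly within 2-fold in RPM. miR-21, which is known for fibroblasts and for proliferating cells, had 986772 reads in ES-like cells and 2991568 in PEBs, a log2 ratio of 0.29. The miR-29 family, which targets collagen messengers, had log2 ratios from -0.36 to 0.33. The 10 names of the miR-30 family had a median of -0.02 and ran from -0.83 to 1.20, with miR-30a-3p at 1.11 and miR-30c-3p higher under all scalings, and miR-34c, linked to p53, was at 12749 and 15298 RPM. The miR-15, miR-16 and miR-195 group, known for slowing the cell cycle, had a median of -0.70 with miR-16 at -1.01, and the miR-130 and miR-301 family, at 0.0204% and 0.0130% of reads, had a median of -0.47. With TMM factors over 5 libraries these medians were 0.02 and 0.25.

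**Figure D3:**
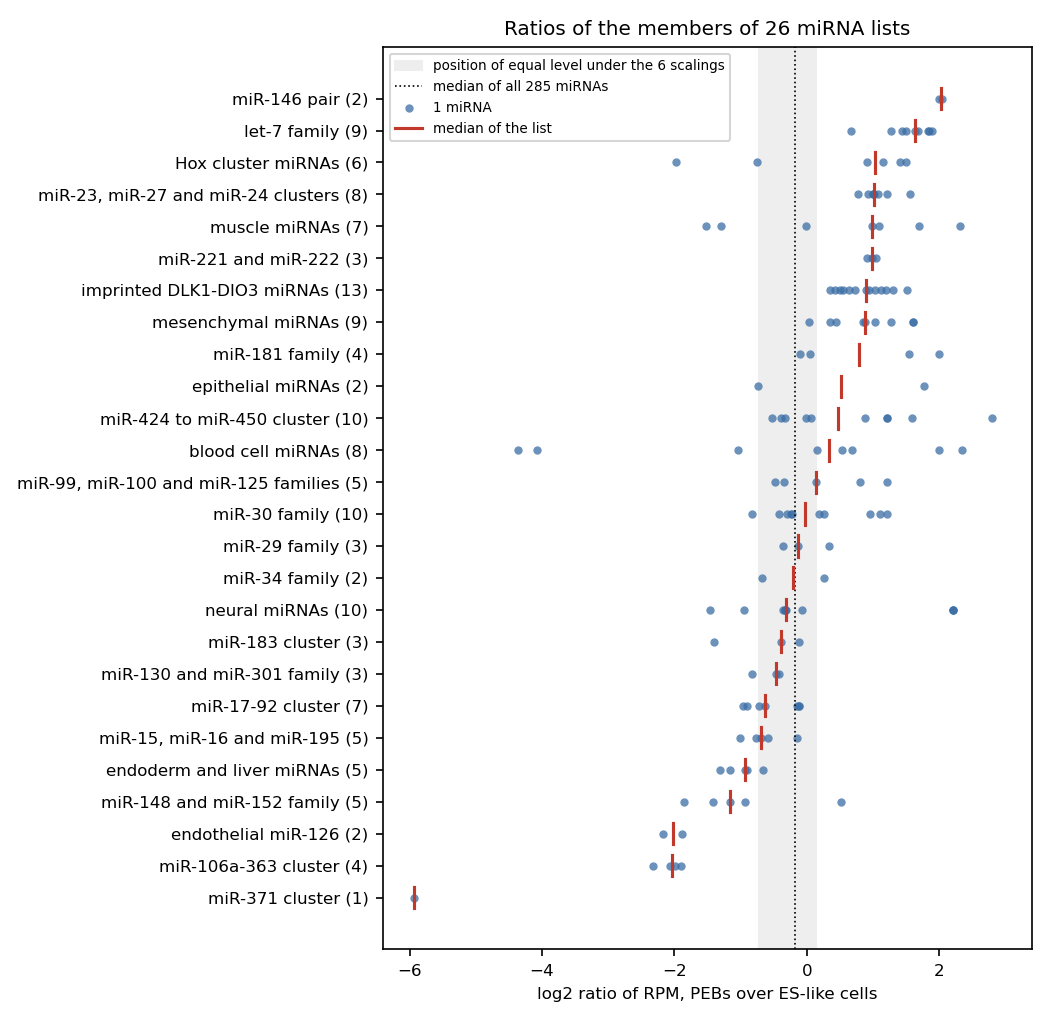
Log2 ratio of RPM, PEBs over ES-like cells, of the members of 26 miRNA lists, with 1 point for a miRNA, a red bar at the list's median and the number of measured members in parentheses. The dotted line is the median of all 285 miRNAs and the grey band covers where equal levels would lie under the 6 scalings: all points of let-7 lie right of the band, all of miR-106a-363, miR-126 and miR-371 lie left of it, and those of miR-17-92 lie in or just left of it.

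Ratios were also laid out by the neighbourhood of the genes. In the pig RefSeq annotation (Sscrofa11.1, used for neighbourhood only), 35 groups of genes within 10 kb of each other held 2 or more precursors with a compared miRNA. The median range of log2 ratios within a group was 0.68. All members lay on the same side of 0 in 27 groups, of which 13 were above and 14 below, as counted in RPM. Most groups held few names, some of them arms of the same hairpin, and whether neighbours were more alike than other miRNAs was not tested. The groups with medians above 1 numbered 8, among them miR-216 with miR-217, the pairs of miR-181a with miR-181b, and let-7a with let-7f and let-7d. The 5 with medians below -1 were miR-144 with miR-451, the miR-106a-363 cluster, miR-224 with miR-452, miR-215 with miR-194b, and miR-425 with miR-191. The widest group was that of miR-542 and miR-450 on the X chromosome, with a range of 3.32 that rested on miR-450b-3p (10 and 173 reads) and was 1.73 without it. In this group miR-542-3p (187 to 434 RPM) was higher under all scalings, while miR-450a was level (352 and 348 RPM) and miR-450b-5p was at 376 and 261 RPM. miR-503 (156 to 362 RPM) and miR-424-3p (49.6 to 150 RPM), from the same region, were higher as well. Names with several genes, such as miR-24-3p and miR-92a, were counted in more than 1 group.

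**Figure D4:**
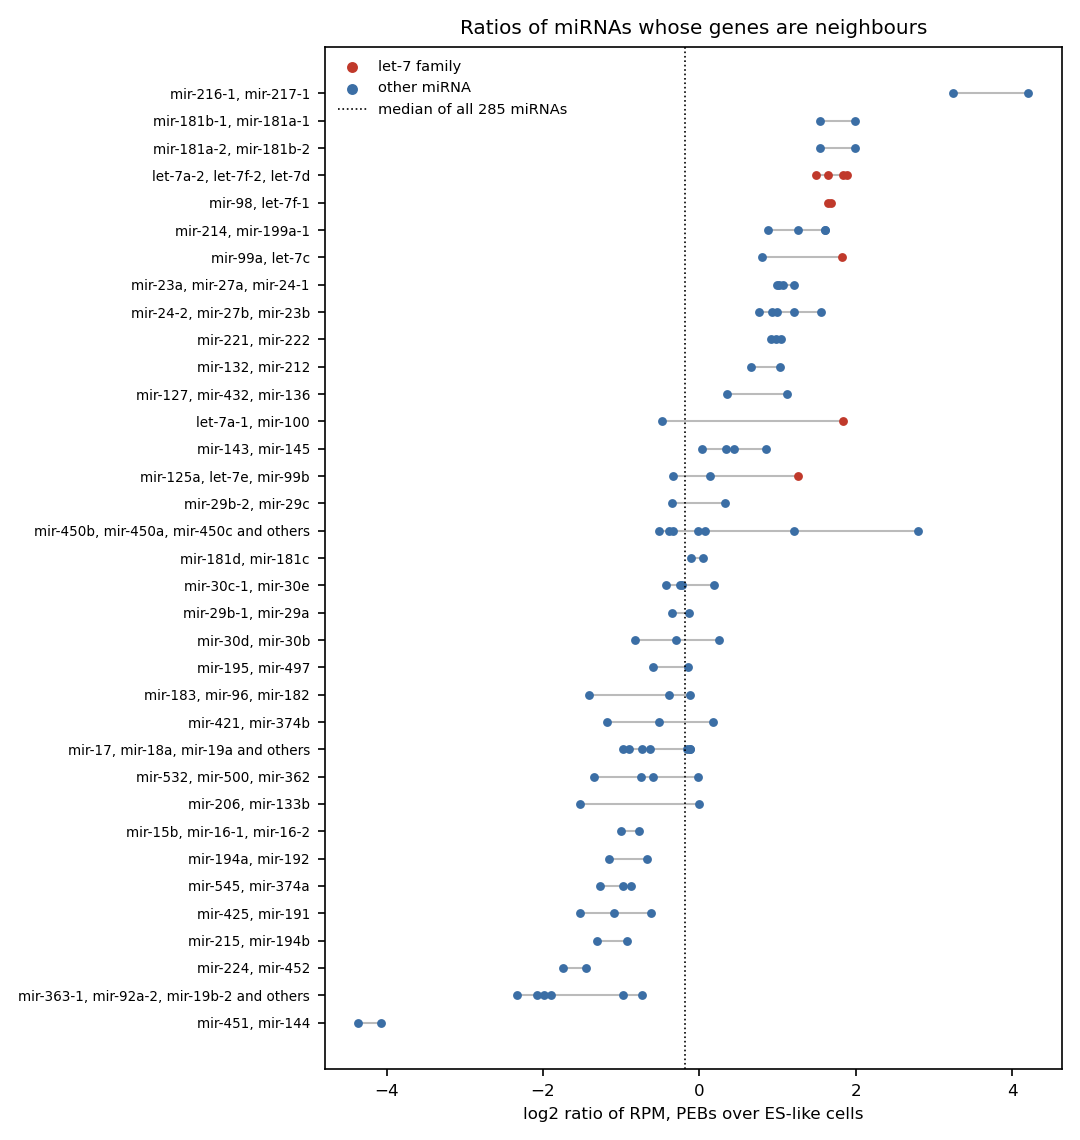
Log2 ratio of RPM, PEBs over ES-like cells, of miRNAs in 35 groups of neighbouring genes, with 1 row for a group, 1 point for a miRNA, a grey line over the range and a dotted line at the median of all 285. Red points are let-7 family members, which lie right of their neighbours in the rows of miR-99a, miR-100 and miR-125a.

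The share of reads between the arms of a hairpin is free of the scaling, and it differed little between PEBs and ES-like cells for most hairpins. Of 78 hairpins with both arms in the table, 50 had 10 or more reads of each arm in both libraries, and in 8 of them (16%) the ratio of the 5p to the 3p arm differed by more than 2-fold. The median absolute difference was 0.43 on the log2 scale, and both arms had the same direction in RPM in 41 of 50, a count that, unlike the arm shares, depends on the scaling. Of these 8, miR-30c and miR-361 had 100 or more reads of each arm in both libraries. The 5p name of miR-30c sums 2 near-equal precursor rows, and the 3p arm of precursor miR-30c-1 has its own name, miR-30c-1-3p. That name had 80 ES-like and 168 PEB reads, a log2 ratio of -0.24 beside 1.20 for miR-30c-3p, and was not in the arm ratio. The miR-30c difference is therefore not that of 1 hairpin. The 5p arm of miR-361 took 45.0% of the hairpin's reads in ES-like cells (1947 of the 5p and 2375 of the 3p arm) and 65.8% in PEBs (6277 and 3268). The major arm of miR-361 thus differed between the libraries, and in the BLs the 5p arm was at 8.33% and 10.17%. miR-450b had the largest difference, a log2 value of -3.32 (-4.24 to -2.40, the 95% interval of the log odds for counting error), from 10 reads of the 3p arm in ES-like cells and 173 in PEBs beside 2393 and 4144 of the 5p arm. For miR-345 the 5p arm had 20 ES-like reads against 98 of the 3p arm and 14 PEB reads against 338, and the remaining 5 were miR-30c, miR-542, miR-490, miR-664 and miR-193a. Both arms of miR-345 sum 2 near-equal rows. By 1 row its 5p arm had 10 ES-like and 7 PEB reads, and the pair would miss the limit of 10 reads. miR-671, miR-424 and miR-1306 also changed their major arm, by less than 2-fold.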

How the data were processed

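The authors sequenced small RNA from PEBs, ES-like cells, PFFs and the pair of BL samples. The submitters' processing notes name cutadapt 1.10, Bowtie 1.1.1, SAMtools 1.2, HTSeq 0.6.1p1 and the genome build Sscrofa10.2, and the methods add miRDeep2 with miRBase. The deposited table holds raw counts of reads per mature miRNA and precursor, without normalization, in whole numbers; how reads matching several precursors were divided is not given in the sources used here, and names with several precursors held 34.3% of ES-like and 44.2% of PEB reads. A second deposited table lists predicted loci with their counts, in which a locus that was not predicted in a library has a dash in place of a count. In 4 PEB and 7 ES-like entries of that table several counts are joined, and the largest was used; 1 ES-like entry is text and was left out. All 5 columns of counts were matched to samples by name.

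Counts were summed per name, scaled to RPM, and compared as PEBs over ES-like cells without a pseudocount, for names with 10 or more reads in either library. A 2-fold limit was used, as in the study. The 6 scalings were RPM, TMM factors over 5 libraries and over PEBs and ES-like cells (edgeR 4.0.16), DESeq2 1.42.0 size factors, the total with predicted loci, and the total without miR-148a-3p and miR-21. Intervals of a ratio are exact 95% intervals of the share of one library among the reads of both (scipy 1.17.1). With 1 library a side no test between conditions was run. The script was tested on simulated data. Named miRNAs were the 12 largest ratios in each direction with 1000 or more reads in the higher library, the top 8 of each library, list members and arm pairs past 2-fold; others were chosen after their values were seen. The members and the 26 lists were chosen with earlier results of these data known. Mature sequences were not used here.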

Additional observations from a re-analysis of the deposited data

Results flagged for a closer look

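Signals outside the named miRNAs were found among the predicted loci, which enter the report above in 1 scaling and, for the first locus given here, in the check of markers. Positions are on Sscrofa10.2, as deposited. At positions 115200079 to 115200140 of chromosome 8, 3980216 ES-like reads were counted, which equal 62.4593% of the mature reads of that library, and 1751630 PEB reads, which equal 11.1%. PFFs had 24 reads. BL_1 had 27970 reads (24.6% of mature reads) and BL_2 497400 (17.9%), so the locus was abundant in the BLs as well. The locus from 16004 to 16065 on the unplaced scaffold GL894213.2 carries equal counts in every library and was counted once. At 115200553 to 115200622 of chromosome 8 there were 145229 ES-like reads (2.279% of mature reads) and 57516 PEB reads (0.363%), and at 15524 to 15591 of GL894213.2 there were 145183 (2.27827%) and 57507. Neither was predicted in PFFs. Loci were predicted separately in each library, so no fold is given. The chromosome 8 locus of this pair took 0.249% and 0.325% of mature reads in BL_1 and BL_2.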

How the results depend on the processing

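The 61 miRNAs more than 2-fold higher in PEBs became 102 with TMM factors over 5 libraries, 94 with predicted loci in the total and 13 at a 4-fold limit. The 67 lower ones became 26, 32 and 14. The median log2 ratio, -0.19 in RPM, was 0.53 and 0.39 under these scalings, -0.32 without the top names in the total, 0.064 with TMM factors over PEBs and ES-like cells and -0.061 with the largest precursor row of each name. Arm pairs past 2-fold, 8 of 50, became 2 of 34 with 100 reads an arm and 2 of 50 at 4-fold. The causes of these differences were not tested. Of 155 named or listed miRNAs, 74 were past 2-fold in RPM, and of their 518 values under 7 other settings 476 stayed past 2-fold and 42 kept the direction under 2-fold. The scalings move all ratios alike by at most 0.72 on the log2 scale, so a miRNA past 2-fold could not change direction under them. The TMM factors over PEBs and ES-like cells, the single counting of names within 1% and the BL spread at 50 and 200 reads were chosen after seeing the data. No paired analysis was possible because each side had 1 library, and for the same reason no library could be left out.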

Other observations

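A group of 6 predicted loci on the X chromosome, between 137140012 and 137237170 (Sscrofa10.2), had many reads in ES-like cells and few in PEBs. The 4 with a count in both libraries had 18486 reads in ES-like cells (2901 in every 1000000 mature reads) and 55 in PEBs (3.47). Over all 6 the BLs had 1052 reads (9249 on that scale) and 12383 (4451), and none of the 6 was predicted in PFFs. The most reads lay at 137160752 to 137160812, with 8307 ES-like and 20 PEB reads, followed by 137237110 to 137237170 with 5629 and 20. At 137225803 to 137225862 the counts were 2781 and 5, and at 137160439 to 137160498 they were 1769 and 10. The other 2 were predicted in ES-like cells alone of the cultured libraries. The group was picked for this difference after its values were seen, and loci were predicted separately in each library, so no fold is given.

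Over all predicted loci, 278 had 10 or more reads in either library. Loci that carry equal counts in every library were each counted here, so some of the same reads enter more than once. Of these, 147 had a count in both. Scaled to mature reads, 72 of the 147 were more than 2-fold lower in PEBs and 15 more than 2-fold higher. Their median log2 ratio was -0.96, beside -0.19 for the 285 miRNAs. The loci above that were lower in PEBs thus stand among predicted loci that were mostly lower. These counts are a description only, since loci were predicted separately in each library.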
